A study of Drosophila melanogaster with 54 samples.

Results

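The genes described here encode proteins of the mitochondrial ribosome of Drosophila melanogaster. They were chosen by their annotation, as genes whose symbol begins with mRpL or mRpS followed by a number. The choice was made with earlier results of these data known. On the arrays, 66 probe sets were annotated to 1 such gene each, and the probe set with the highest mean over the 54 arrays stood for its gene. This gave 64 genes, 43 named for the large subunit (mRpL) and 21 for the small subunit (mRpS), of the 10844 genes that had a probe set of their own. No filter on low values was used, so all 64 were tested, and each had a mean level above the median of the probe sets. Another 9 genes with such symbols had no probe set of their own and were not analysed here, and mRpS12 and mRpS15 are listed under their older names, tko and bonsai.

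The mitochondrial ribosome translates the few messages of the mitochondrial genome, which encode core subunits of the respiratory chain and the ATP synthase. Its ribosomal RNAs come from the mitochondrial genome, but its proteins are made from nuclear genes in the cytoplasm and imported. Some of these proteins have bacterial counterparts, and others are found only in mitochondria. The subunit in a fly symbol follows older naming: the human counterparts of mRpS18A and mRpS30 sit in the large subunit.

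The study used Affymetrix oligonucleotide arrays on RNA of cells sorted from dissociated embryos, with 3 arrays in each of 18 groups. Every group carried Twi-GAL4 and UAS-GFP, so that green fluorescence marked cells in which the mesodermal Twist driver had been active. The arrays came in 3 numbered sets, each with its own wild type GFP positive cells and wild type GFP negative cells. The genotypes were profiled in GFP positive cells only.

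In set 1 the genotypes were EGFR gain of function (UAS-lambda-Top, an activated EGF receptor), FGFR gain of function (UAS-lambda-Htl with UAS-Dof, an activated FGF receptor and its adaptor) and spi loss of function (mutant for an EGF receptor ligand). In set 2 they were Arm gain of function (UAS-Arm s10, stabilised beta-catenin), Arm+Ras gain of function (UAS-Ras1 Act with UAS-Arm s10), Pnt gain of function (UAS-Pnt P2VP16, an activated Ets transcription factor), Ras gain of function (UAS-Ras1 Act), Tkv gain of function (UAS-Tkv QD, an activated receptor for the BMP ligand Dpp) and wg loss of function (mutant for the fly Wnt ligand). In set 3 they were Dl loss of function (mutant for a Notch ligand), lmd loss of function (mutant for a transcription factor of fusion-competent myoblasts) and Notch gain of function (UAS-Notch intra, the activated intracellular part of Notch). The transgenes acted in the cells of the Twist driver, whereas the loss of function embryos were mutant in every cell. Embryos of sets 1 and 2 and the wild type of set 3 were 5.5 to 7.5 h old at 25 °C, and the 3 genotypes of set 3 were 6 to 8 h old, so that genotype and age cannot be told apart there.

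Values are the authors' log2 probe set levels, and differences are in log2 units, the first-named group minus the second. Each set was on its own scale, so no level is set against a level of another set. A gene is called changed where limma gave an adjusted p under 0.05 over the 13966 probe sets tested. No label states that the 3 arrays of a group came from separate embryo collections, so the p-values measure the spread between these arrays, which may be technical, and 3 arrays a group limit the precision. The sort itself was visible in the fit over the wild type arrays of the 3 sets together: 6 of 7 mesoderm markers were called higher in GFP positive than in GFP negative wild type cells (Mef2, tin and how were not analysed here), whereas 6 of 7 ectoderm markers and 6 of 6 neural markers were called lower. A control for the length of labelled RNA, the 3′ minus 5′ probe set difference of eIF-4a, stood apart in wg loss of function arrays (3.29 to 3.59) from wild type GFP positive arrays of set 2 (2.01 to 2.24). It was also higher in the genotypes of set 3 (2.80 to 3.87 over their 9 arrays) than in wild type GFP positive arrays of that set (2.37 to 2.79). The same difference for actin was 0.88 to 0.998 on wild type GFP positive arrays of set 2, and it lay above this without overlap in wg (1.38 to 1.39), Pnt (1.16 to 1.27) and Arm (1.14 to 1.22) arrays and below it in Tkv (0.53 to 0.68) and Ras (0.68 to 0.82) arrays. In set 3 actin was at 1.64 to 1.88 in Dl and 1.69 to 2.12 in lmd arrays, against 0.997 to 1.34 in wild type GFP positive arrays. Between the 2 sorts actin was at 0.88 to 0.998 in GFP positive and 0.74 to 0.82 in GFP negative arrays of set 2, and at 0.997 to 1.34 in GFP positive and 0.66 to 0.83 in GFP negative arrays of set 3, and the sorts overlapped in set 1. The GAPDH difference was 0.14 to 0.19 on wild type GFP positive arrays of set 2. Without overlap, it was higher in wg (0.53 to 1.49) and lower in Pnt (-1.14 to -0.45), Tkv (-0.72 to -0.465) and Ras (-0.056 to 0.024) arrays. GFP negative arrays of set 2 were at 0.29 to 0.84. In set 3 it was 2.485 to 2.79 in Notch arrays, against -1.63 to 0.53 in wild type GFP positive arrays. The controls did not always move together, and the part of actin and GAPDH in the results was not tested.

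Mitochondrial ribosomal protein genes as a group were higher in GFP positive than in GFP negative wild type cells. The median over the 64 genes lay between 6.50 and 6.71 on the 3 GFP positive arrays and between 6.27 and 6.42 on the 3 GFP negative arrays of set 1. In set 2 it lay between 7.19 and 7.47 on GFP positive arrays and between 6.78 and 6.90 on GFP negative arrays. In set 3 it lay between 5.92 and 5.99 on GFP positive arrays and between 5.60 and 5.74 on GFP negative arrays. The 2 kinds of cells did not overlap in any set. In RNA from sorted populations, fewer cells of a type and less RNA per cell cannot be told apart.

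**Figure D1:**
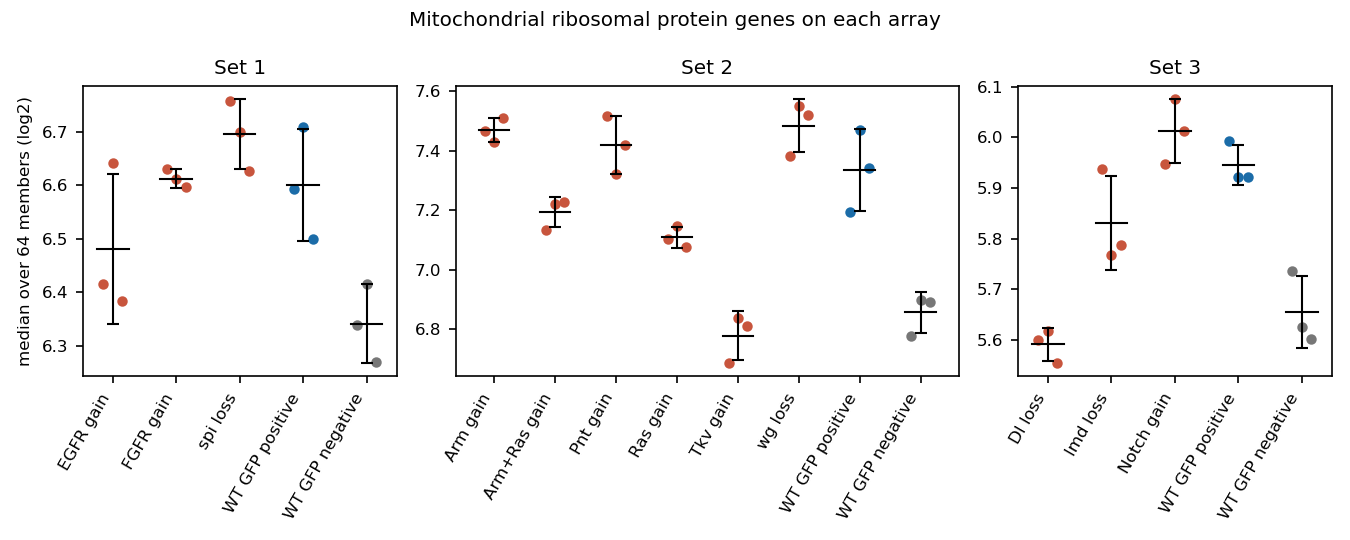
Median log2 level of the 64 mitochondrial ribosomal protein genes on each array, by group and set (points, 1 per array; bars, mean ± SD, n = 3; the axis of each set has its own range). GFP positive wild type arrays lie above GFP negative ones in each set, and the 3 Tkv gain of function arrays (6.69 to 6.84) lie below the wild type GFP positive arrays of set 2 (7.19 to 7.47).

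When the 18 wild type arrays were fitted together, blocked by set, 24 of the 64 genes (37.5%) were called higher in GFP positive cells and 0 lower. Over all probe sets 8.03% were called higher and 8.66% lower, or 16.7% in either direction. The median difference over the 64 genes was 0.27, a 1.20-fold difference, beside 0.003 over all probe sets. Among the 64 genes, 54 had a positive and 10 a negative difference. Of the called genes, 3 reached 1.5-fold, and mRpL3 (0.60), mRpL21 (0.63) and mRpL43 (0.63) had differences of that size that were not called (these 3 are named after their values were seen). Of the called genes, 16 belonged to the large and 8 to the small subunit, with median differences of 0.31 over the 43 large subunit genes and 0.18 over the 21 small subunit genes. By set, the median was 0.26 in set 1, 0.32 in set 2 and 0.17 in set 3, and 38 genes were higher in GFP positive cells in each set.

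The largest called difference was that of mRpL35, which encodes a large subunit protein with a bacterial counterpart. Its levels in set 1 were 6.07, 6.21 and 6.34 in GFP positive cells, against 5.43, 5.71 and 5.48 in GFP negative cells. In set 2 they were 6.84, 6.74 and 7.01 in GFP positive cells, against 5.42, 5.79 and 5.92 in GFP negative cells, and in set 3 they were 6.14, 6.01 and 5.77 in GFP positive cells, against 5.18, 5.36 and 5.67 in GFP negative cells. The GFP positive arrays lay above the GFP negative ones in every set, and the fitted difference was 0.80 ± 0.11 (SE, adjusted p = 5.33e-05), a 1.74-fold level.

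The next was mRpS29, the counterpart of human DAP3, a GTP-binding protein of the small subunit. Its levels were 6.61, 7.02 and 7.22 in GFP positive cells of set 1, against 6.05, 6.49 and 6.196 in GFP negative cells. They were 7.73, 7.88 and 7.89 in GFP positive cells of set 2, against 6.59, 7.01 and 6.67 in GFP negative cells, and 6.39, 6.56 and 6.52 in GFP positive cells of set 3, against 6.26, 6.03 and 6.38 in GFP negative cells. Again no array crossed over, although the margin in set 3 was narrow, and the fitted difference was 0.68 ± 0.12 (SE, adjusted p = 0.000451). The small subunit gene mRpS35 differed by 0.59 ± 0.11 (adjusted p = 0.000863), with no overlap in any set. The same separation in all 3 sets was seen for mRpL44, mRpL45 and mRpS18C, which makes 6 of the 64 genes, where 3.14% of all probe sets separated in this direction and 2.84% in the other.

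Other large differences were those of mRpS34 (0.56), mRpL40 (0.55), mRpS2 (0.53), mRpL15 (0.49) and mRpL12 (0.49), whose adjusted p lay between 0.000501 and 0.00588. The mRpL12 protein forms the stalk on which translation factors act. Without wild type GFP positive array 2B the adjusted p of mRpL13 was 0.0562, and without array 2C those of mRpL46 and mRpS16 were 0.0676 and 0.0749. These are the highest values over the arrays left out in turn, here and wherever a call is said to be lost without an array, and other arrays can have the same effect. The other 21 calls held without any 1 array. Fitted on its own, set 1 gave 10 calls, set 2 gave 21 and set 3 gave 1.

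**Figure D2:**
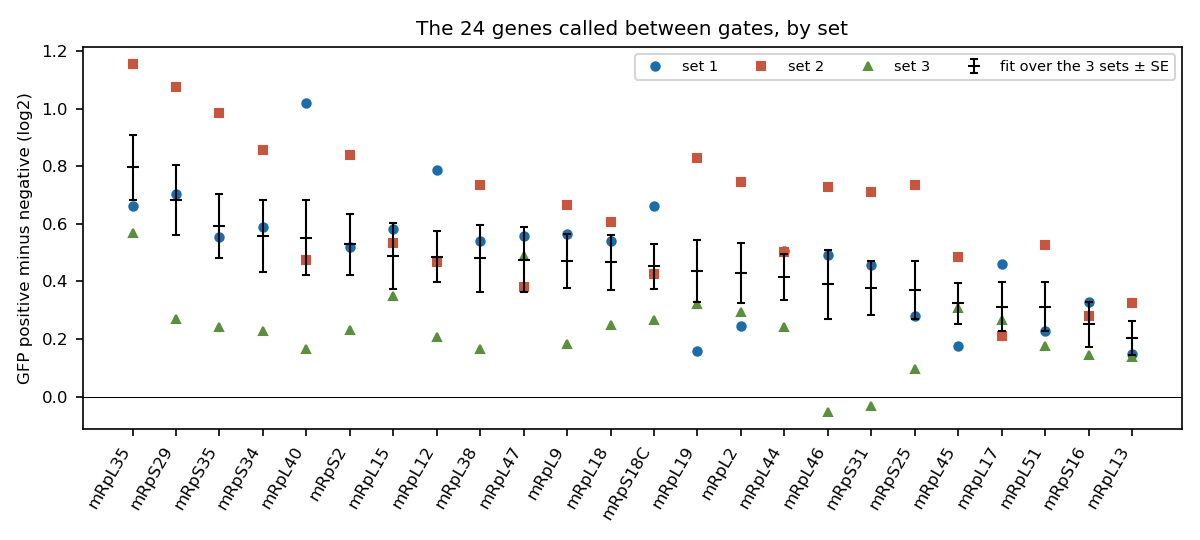
Difference between GFP positive and GFP negative wild type cells (log2) in each set for the 24 genes called, with the fitted difference ± SE over the 3 sets. Of the 24 genes, 22 are above 0 in each set, and mRpL46 and mRpS31 are just below 0 in set 3.

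The size of the difference depended on the set for 6 genes, by an F test of the interaction of sort and set (adjusted p under 0.05), a share close to the 7.94% of all probe sets that passed it. For mRpL33 the GFP positive minus GFP negative difference was -0.26 in set 1, -1.10 in set 2 and 0.40 in set 3. For mRpL14 it was 0.60, -0.43 and 0.40, and for mRpS18A 0.40, -0.36 and 0.42, in the same order. In mRpL14 and mRpS18A set 2 had the opposite sign to sets 1 and 3, and in mRpL33 set 3 had the opposite sign to sets 1 and 2. For mRpS11 the difference was 0.05, -0.77 and 0.03, for mRpL28 -0.37, 0.25 and 0.46, and for mRpS31 0.46, 0.71 and -0.03. In set 2 the eIF-4a difference was 2.01 to 2.24 on GFP positive arrays and 2.29 to 2.37 on GFP negative arrays, with no overlap, whereas the 2 sorts overlapped in it in sets 1 and 3. The actin difference separated the sorts in set 2 the other way round, higher in GFP positive arrays, and it was also higher there in set 3. The part of either control in these differences was not tested gene by gene. With the eIF-4a difference as a covariate the number called between the sorts was 24, as without it.

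Genes of mitochondrial gene expression and biogenesis outside the symbol family gave calls in the same direction, in numbers to be read beside the 8.03% of all probe sets called higher. Both tko (0.71) and bonsai (0.37) were called higher. Of 8 mitochondrial translation factors, 3 were called higher, namely the elongation factors mEFTu1 (1.40), mEFTs (0.74) and mEFG1 (0.39), and 0 lower. Of 16 mitochondrial aminoacyl-tRNA synthetase and amidotransferase genes, 2 (PheRS-m, 1.10, and ProRS-m, 1.02) were called higher, and the median of the list was 0.05. Of 12 genes of mitochondrial genome maintenance, transcription and RNA, 3 were called higher, among them mtSSB (0.70), the single-stranded DNA binding protein, and the median was 0.14. Of 16 import and chaperone genes, 5 were called higher, with Hsp60A at 1.52 and Hsc70-5 at 1.24. A list of growth and mitochondrial regulators went mostly the other way. Of its 8 genes 1 was called higher (ewg, 0.50) and 3 lower, among them Cdk4 (-0.47) and CycD (-0.53), with a median of -0.22. Over all probe sets 8.66% were called lower.

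Respiratory chain and ATP synthase genes gave 18 calls higher and 0 lower of 66, with a median difference of 0.21 and COX7A (0.78) and ND-ACP (0.67) among the called. Of 13 genes of nucleolar ribosome biogenesis, 9 were called higher, such as Nop56 (0.57), a box C/D snoRNP protein, and Polr1A (0.62), the largest RNA polymerase I subunit, with a median of 0.52. Cytoplasmic ribosomal protein genes gave 2 calls higher and 1 lower of 37, with a median of 0.02. Markers of hemocytes and fat body, which also come from Twist-expressing mesoderm, were called higher in 3 of 5 cases, and germ cell and maternal markers lower in 4 of 7. Their part in the difference of the ribosomal protein genes was not tested.

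The clearest genotype difference in 1 direction was that of Tkv gain of function. Of the 64 genes, 36 were called lower in Tkv than in wild type GFP positive cells and 0 higher, where 3.95% of all probe sets were called lower and 4.43% higher. The median difference was -0.47, against -0.02 over all probe sets, and 63 of the 64 genes had a negative difference. The median over the genes was 6.78 ± 0.08 on Tkv arrays and 7.34 ± 0.14 on wild type GFP positive arrays of set 2 (SD, n = 3 each), and it was 6.86 ± 0.07 on wild type GFP negative arrays. For 44 genes the 3 Tkv arrays lay below the 3 wild type arrays, as did 14% of all probe sets. The quartiles of the difference were -0.58 and -0.35, and 14 of the 36 called genes were at least 1.5-fold lower. The genes mRpL43 (-1.38) and mRpL41 (-0.62), named after their values were seen, had differences of that size that were not called. Both subunits took part, with 21 calls in the large and 15 in the small subunit.

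The mRpL20 gene, for a large subunit protein with a bacterial counterpart, had levels of 5.04, 4.86 and 5.04 in Tkv cells, against 5.94, 6.35 and 6.29 in wild type GFP positive cells. Its fall by 1.21 ± 0.15 on the log2 scale (SE, adjusted p = 2.26e-05) was the largest called, with no overlap. The mRpS29 gene had 7.04, 6.74 and 6.72 in Tkv cells, against 7.73, 7.88 and 7.89 in wild type cells, a difference of -0.9997 ± 0.15 (adjusted p = 0.000126). For mRpS31, a small subunit gene with no bacterial counterpart, the levels were 7.49, 7.57 and 7.48 in Tkv cells, against 8.41, 8.38 and 8.36 in wild type cells. The arrays of each group agreed within 0.1 here, and the difference was -0.87 ± 0.08 (adjusted p = 8.33e-07).

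Levels of mRpL23, which lines the exit of the polypeptide tunnel in bacterial ribosomes, were 7.75, 8.09 and 8.08 in Tkv cells, against 8.49, 8.83 and 8.84 in wild type cells, a difference of -0.75 ± 0.09 (adjusted p = 2.36e-05). The others among the 8 largest falls were those of mRpL54 (-0.91), mRpS34 (-0.77), mRpS16 (-0.74) and mRpL49 (-0.72). These 8 calls held without any 1 array. Over the 36 called genes 19 calls did so, and the number called was 23 without Tkv array 2A, 21 without wild type GFP positive array 2B and 21 without array 2C. With only the Tkv and wild type GFP positive arrays in the fit, 21 genes were called, again lower. The eIF-4a difference was 1.81 on the Tkv arrays and 2.01 to 2.24 on the wild type arrays. With this measure as a covariate the median was -0.41 and 11 genes were called. The measure did not overlap between the 2 groups, so its part and that of the genotype cannot be told apart. The shares of all probe sets called in these alternative fits are not given here.

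**Figure D3:**
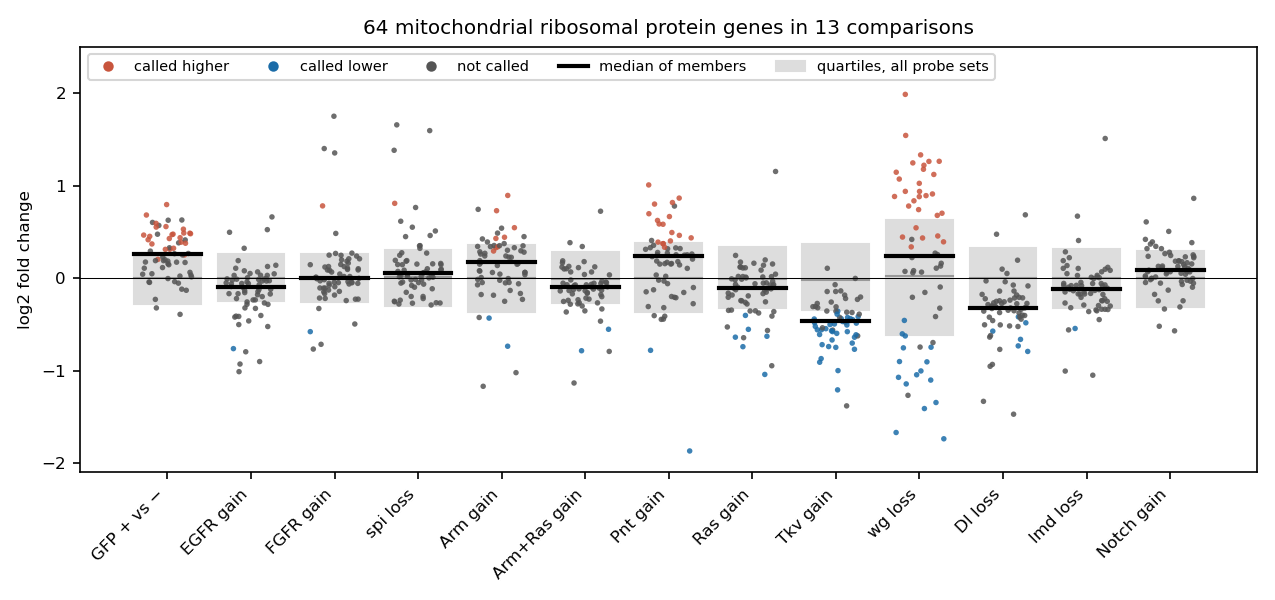
Log2 differences of the 64 genes in the 13 comparisons (points; red, called higher; blue, called lower; grey, not called; black bar, median of the 64 genes; grey box, quartiles over all probe sets). The points of Tkv gain of function lie below 0 except 1, and those of wg loss of function spread to both sides.

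Respiratory chain and ATP synthase genes gave 24 calls lower and 1 higher of 66 in Tkv cells, with a median of -0.34, such as the complex I subunit ND-15 (-0.63) and the complex III subunit UQCR-6.4 (-0.82). Other genes called lower were tko (-0.86), the elongation factors mEFTu1 (-0.40) and mEFTu2 (-0.56), TFAM (-0.52), which packages mitochondrial DNA, and 4 of 16 import genes. Cytoplasmic ribosomal protein genes gave 11 calls lower and 1 higher of 37, with a median of -0.08, and nucleolar genes 4 lower and 2 higher of 13. Of the marker lists, mesoderm had 1 of 7 called higher (bap, 1.48), and ectoderm and neural had 0 called. Hemocyte and fat body markers had 3 of 5 called higher (Ppn, 2.04; srp, 1.07; gcm, 0.65), with a mean level of the list of 6.91 to 7.26 on Tkv arrays and 6.04 to 6.43 on wild type GFP positive arrays. The part of these cells in the fall of the ribosomal protein genes was not tested.

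In wg loss of function cells the 64 genes split. There were 29 called higher and 16 called lower than in wild type GFP positive cells, in a comparison in which 11% of all probe sets were called higher and 15.5% lower. The quartiles of the difference over the genes were -0.64 and 0.89, where those over all probe sets were -0.62 and 0.63. The 3 wg arrays lay above the 3 wild type arrays for 31 genes and below them for 20, as they did for 18.1% and 21% of all probe sets.

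The largest rise was that of mRpL33, with levels of 8.57, 8.90 and 8.75 in wg cells, against 6.60, 6.94 and 6.72 in wild type GFP positive cells. The difference of 1.99 ± 0.16 (SE, adjusted p = 4.09e-09) is a 3.97-fold level. The mRpS11 gene, for a protein of the platform of the small subunit, had 9.59, 9.60 and 9.61 in wg cells, against 8.11, 8.35 and 8.33 in wild type cells, a difference of 1.33 ± 0.10 (adjusted p = 5.45e-10). The mRpL20 gene, the lowest of the called genes in Tkv cells, had 7.31, 7.58 and 7.47 in wg cells, above the 5.94, 6.35 and 6.29 of the same wild type arrays. Others with large rises were mRpL41 (1.54), mRpL20 (1.26), mRpL32 (1.26), mRpL14 (1.25), mRpL52 (1.22) and mRpS33 (1.18).

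Among the genes that fell, mRpL2, whose bacterial counterpart lies at the peptidyl transferase centre, had 6.34, 6.15 and 6.03 in wg cells, against 7.41, 7.53 and 7.63 in wild type cells, a difference of -1.34 ± 0.12. The mRpS29 gene had 6.25, 6.31 and 6.72 in wg cells, against 7.73, 7.88 and 7.89 in wild type cells (-1.41 ± 0.15). Falls of a like size were those of mRpL39 (-1.67), mRpL38 (-1.14), mRpL1 (-1.10), mRpL44 (-1.07) and mRpS31 (-1.04). The difference of mRpL22 was -1.74, and without wg array 2C it was -1.13 with an adjusted p of 0.177. Without the same array the difference of mRpL1 was -0.61, still called. In all, 37 of the 45 calls held without any 1 array. Of the 2 genes listed under older names, bonsai (0.48) was called higher and tko (-0.55) lower. Respiratory chain and ATP synthase genes also split, with 13 called higher and 29 lower of 66, as did cytoplasmic ribosomal protein genes, with 14 higher and 14 lower of 37, whereas mitochondrial translation factors had 4 of 8 called lower and 0 higher. Markers of several cell types were called lower, with 3 of 7 for mesoderm, among them twi (-1.62), 2 of 7 for ectoderm (en, -3.13, and hh, -2.42), 2 of 3 for endoderm (hkb, -2.42, and fkh, -2.30) and Ppn (-1.68) of the 5 for hemocytes and fat body. Neural markers had 1 called higher (ac, 1.70) and 1 lower (wor, -0.89). The part of these in the split was not tested.

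The split ran with the size of the gene. Over the 64 genes the difference in wg cells had a Spearman correlation of -0.71 with gene span, the distance between the ends of the gene in RefSeq's Release 6 plus ISO1 MT assembly, introns included, beside -0.08 over 10799 genes with a span. The median span was 776 bp for the 29 genes called higher and 1333 bp for the 16 called lower. The mRpL33 gene has the shortest span of the 64, at 468 bp. The genes share the same 6 arrays and are not independent, so the correlation is a description. The wg arrays are those with the high eIF-4a difference (mean 3.40, against 2.13 on wild type GFP positive arrays). With that difference as a covariate 3 of the 64 genes were called and the median was 0.03, against 45 genes and 0.24 without it. Without the covariate 26.6% of all probe sets were called in either direction. The share with it is not given here, so the drop is not shown to be particular to these genes. Since the covariate differs between the groups, its part and that of the genotype cannot be told apart.

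**Figure D4:**
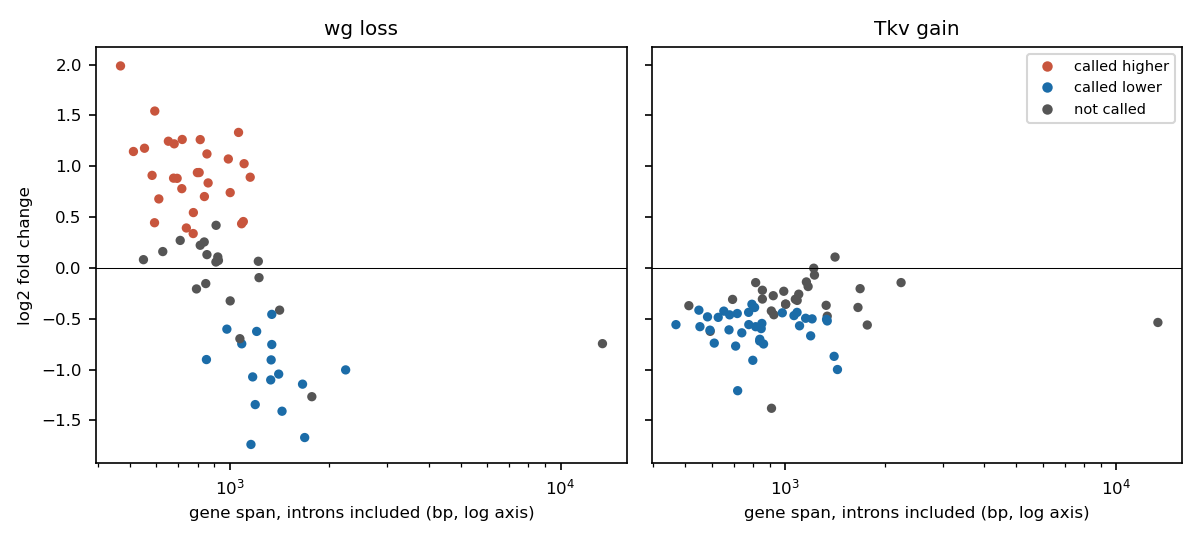
Log2 difference from wild type GFP positive cells against gene span (bp, log axis) for the 64 genes, in wg loss of function (left) and Tkv gain of function (right); colours mark called genes. In wg cells the short genes are higher and the long genes lower (Spearman -0.71). In Tkv cells all but 1 of the genes are lower, with larger falls leaning to the short ones (Spearman 0.28, and 0.27 over all genes).

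In Tkv cells the same correlation was 0.28 over the 64 genes and 0.27 over all genes, and the called genes had a median span of 804 bp, against 1081 bp for those not called. Over all genes, those called lower in Tkv cells had a median span of 1242 bp and those called higher 7671.5 bp. The 64 genes are short, with a median span of 909.5 bp against 2385 bp over the genes represented. The share called lower among genes of like span was not computed. The correlation was also taken between the sorts. Between GFP positive and GFP negative wild type cells it was 0.27 over the 64 genes, with -0.11 in set 1, 0.51 in set 2 and -0.02 in set 3. In set 2 the eIF-4a and GAPDH differences were lower and the actin difference higher in GFP positive arrays, each without overlap. In set 3 the actin difference was again higher without overlap, whereas the sorts overlapped in eIF-4a and GAPDH. The span correlation was negative over the 64 genes in Pnt (-0.61) and Arm (-0.64) gain of function, beside -0.15 over all genes in each. In both genotypes the actin difference was above that of the wild type GFP positive arrays, whereas the eIF-4a difference overlapped theirs. The GAPDH difference was below theirs in Pnt arrays and overlapped theirs in Arm arrays. In Ras cells the span correlation was -0.37 over the 64 genes and 0.09 over all genes. There the actin and GAPDH differences were both below those of the wild type GFP positive arrays. In the remaining genotypes the correlation over the 64 genes lay between -0.33 (Notch, with -0.16 over all genes) and 0.09 (spi). It was -0.18 in Arm+Ras cells, with 0.10 over all genes. The part of these controls in the correlations was not tested. All comparisons of set 2 share the same 3 wild type GFP positive arrays, so their values are not independent of each other.

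In Pnt gain of function cells 17 of the 64 genes were called higher and 2 lower, where 3.87% of all probe sets were called higher and 4.98% lower, and the median difference was 0.24. The mRpL14 gene, for a protein at the subunit interface in bacteria, had levels of 8.49, 8.48 and 8.76 in Pnt cells, against 7.22, 7.66 and 7.83 in wild type GFP positive cells, a difference of 1.01 ± 0.13 (adjusted p = 1.36e-05). The small subunit gene mRpS33 had 8.10, 7.95 and 7.99 in Pnt cells, against 6.95, 7.35 and 7.29 in wild type cells (0.82 ± 0.12, adjusted p = 6.48e-05). Neither gene overlapped between the groups. Other rises were those of mRpL52 (0.87), mRpL33 (0.80), mRpS28 (0.70), mRpL55 (0.67), mRpS18A (0.62) and mRpL54 (0.59). The mRpL54 call was lost without Pnt array 2A (adjusted p = 0.126).

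The 2 genes called lower in Pnt cells were mRpS9 and mRpS30. Levels of mRpS9 were 5.09, 5.30 and 2.83 in Pnt cells, against 6.10, 6.28 and 6.45 in wild type cells. Pnt array 2C lies far below the other 2 Pnt arrays, and the fitted difference was -1.87 ± 0.41 (adjusted p = 0.00415) with it and -1.08 ± 0.23 (adjusted p = 0.00405) without it. The difference of mRpS30 was -0.78, with an adjusted p of 0.0985 without wild type GFP positive array 2A. The number of the 64 genes called was 11 without Pnt array 2C and 10 without wild type GFP positive array 2A, and it was 6 with only the Pnt and wild type GFP positive arrays in the fit. Nucleolar genes gave 5 calls lower and 0 higher of 13 in Pnt cells, and respiratory chain genes 9 higher and 5 lower of 66. The mitochondrial ribosomal gene bonsai (-0.47) was called lower and tko was not called. Of 16 import genes, 1 was called higher (Tim9a, 0.56) and 1 lower (Hsc70-5, -0.88). Cytoplasmic ribosomal protein genes gave 12 calls higher and 6 lower of 37. Of the marker lists, ectoderm had 3 of 7 and neural 1 of 6 called lower, and mesoderm had 0 of 7 called, and their part was not tested.

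In Arm gain of function cells 8 genes were called higher and 2 lower, where 2.55% of all probe sets were called higher and 4.37% lower, and the median difference was 0.18. The mRpL33 gene had 7.79, 7.54 and 7.62 in Arm cells, against 6.60, 6.94 and 6.72 in wild type GFP positive cells (0.89 ± 0.16, adjusted p = 0.00115). The mRpS33 gene had 7.83, 8.00 and 7.94 in Arm cells, against 6.95, 7.35 and 7.29 in wild type cells (0.73 ± 0.12). No array of either gene crossed over. The mRpL55 gene was also higher (0.55), and mRpS31 was lower, with 8.00, 7.83 and 8.03 in Arm cells, against 8.41, 8.38 and 8.36 in wild type cells (-0.43 ± 0.08).

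These 4 calls held without any 1 array. The calls of mRpS18A (0.44), mRpS28 (0.43), mRpS18C (0.34), mRpL23 (0.33), mRpL24 (0.29) and mRpS30 (-0.74) were lost without wild type GFP positive array 2A, with adjusted p between 0.0859 and 0.307, and the differences of mRpL23 and mRpS18C were then 0.21 and 0.20. The number called was 4 without that array, 5 without Arm array 2B, 6 without Arm array 2C and 3 with only the groups compared in the fit. Nucleolar genes gave 8 calls lower and 0 higher of 13 in Arm cells, with a median of -0.41, and respiratory chain genes 10 higher and 0 lower of 66. Neural markers were called lower in 3 of 6 cases, and their part was not tested.

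In Ras gain of function cells 6 genes were called lower and 0 higher (2.12% and 2.47% of all probe sets), with a median difference of -0.11. The mRpS29 gene had 6.85, 6.92 and 6.61 in Ras cells, against 7.73, 7.88 and 7.89 in wild type GFP positive cells, a fall by 1.04 ± 0.15 on the log2 scale (adjusted p = 0.000117). The mRpS31 gene had 7.64, 7.75 and 7.54 in Ras cells, against 8.41, 8.38 and 8.36 in wild type cells (-0.74 ± 0.08). Both stood well clear of the wild type arrays. The others were mRpL2 (-0.64), mRpS22 (-0.63), mRpS25 (-0.55) and mRpL9 (-0.40). The call of mRpS25 was lost without Ras array 2C (adjusted p = 0.161) and that of mRpL9 without wild type GFP positive array 2B (0.125).

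In Arm+Ras cells only mRpS29 and mRpS31 were called, both lower, where 1.05% of all probe sets were called lower and 1.37% higher. The mRpS29 gene had 6.83, 7.23 and 7.09 in Arm+Ras cells, against 7.73, 7.88 and 7.89 in wild type cells (-0.78 ± 0.15), and mRpS31 had 7.89, 7.84 and 7.76, against 8.41, 8.38 and 8.36 (-0.55 ± 0.08). The groups did not overlap for either gene, both calls held without any 1 array, and 4 genes were called without wild type GFP positive array 2A. With the values above, mRpS31 was called lower in Arm, Arm+Ras, Ras, Tkv and wg cells, and mRpS29 in the same genotypes except Arm, where its difference of -0.25 was not called. Both were called higher in GFP positive than in GFP negative wild type cells. All these comparisons use the wild type GFP positive arrays of set 2.

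In set 3, 6 of the 64 genes were called lower in Dl loss of function cells and 0 higher, where 1.51% of all probe sets were called lower and 0.859% higher. The median difference was -0.32, 59 genes had a negative difference, and the 3 Dl arrays lay below the 3 wild type GFP positive arrays for 33 genes, as did 9.25% of all probe sets. The mRpS18C gene, 1 of the 3 fly genes for S18 proteins, had 6.41, 6.32 and 6.34 in Dl cells, against 6.99, 7.16 and 7.12 in wild type cells (-0.73 ± 0.09, adjusted p = 0.000553). The mRpL28 gene had 6.16, 6.24 and 6.26 in Dl cells, against 6.81, 6.90 and 6.94 in wild type cells (-0.66 ± 0.09, adjusted p = 0.000942). The groups were apart for both genes.

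The differences of mRpS34 (-0.79), mRpL12 (-0.57), mRpS35 (-0.48) and mRpL23 (-0.42) were called, but not without some single arrays, with adjusted p up to 0.166, 0.138, 0.115 and 0.131. The number called was 3 without Dl array 3A, 3 without 3B, 2 without 3C, 2 without wild type GFP positive array 3A and 2 without 3B. Respiratory chain genes gave 5 calls lower and 0 higher of 66, and nucleolar genes 5 lower and 0 higher of 13, and mEFTu1 (-0.92) and Hsp60A (-1.08) were also called lower. Of the neural markers 2 of 6 were called higher (wor, 1.31, and pros, 1.06) and 0 lower. Of the mesoderm markers Him (-0.96) and lmd (-0.74) were called lower and htl (1.47) higher, of 7. The ectoderm marker crb (-1.46) was called lower, and of the hemocyte and fat body markers Pxn (-1.18) lower and gcm (0.54) higher. The eIF-4a difference was 2.83 to 3.74 on Dl arrays and 2.37 to 2.79 on wild type arrays. With it as a covariate the median difference was -0.31 and 3 genes were called, and the share of all probe sets is not given here. The 2 groups did not overlap in this control, so its part and that of the genotype cannot be told apart. The parts of the marker changes in the fall were not tested. Of the 6 genes lower in Dl cells, 5 (83.3%) were among the 36 lower in Tkv cells, of which they are 13.9%; the Tkv calls hold 56.2% of the 64 genes, and the 2 comparisons share no array.

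The lmd loss of function cells had 1 gene called, mRpS18C, with 6.49, 6.60 and 6.54 in lmd cells, against 6.99, 7.16 and 7.12 in wild type cells (-0.54 ± 0.09, adjusted p = 0.0102), where 0.666% of all probe sets were called lower and 0.365% higher. No array overlapped, and the call was lost without wild type GFP positive array 3B (0.0636) and without 3C. In Notch gain of function cells 0 of the 64 genes were called by limma, where 1.06% of all probe sets were called lower and 0.422% higher. At an unadjusted p under 0.05 there were 11 of the 64, and the share of all probe sets at that threshold was not computed. The 2 genes with the smallest p were mRpS18C, with 7.42, 7.40 and 7.55 in Notch cells, against 6.99, 7.16 and 7.12 in wild type cells (0.37 ± 0.09, adjusted p = 0.0792), and mRpL47 (-0.57 ± 0.15, adjusted p = 0.105). The 3 mRpS18C values of Notch cells are above those of wild type cells, which in turn are above those of Dl and lmd cells. The 3 genotypes share the wild type arrays.

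In set 1 few of the genes were called, as was so for all probe sets. The called shares of the 64 genes were 1.56% in EGFR, 3.12% in FGFR and 1.56% in spi cells. Over all probe sets they were 2.74%, 2.21% and 3.19%, in the same order. In EGFR gain of function cells mRpL15 was called lower, with 6.05, 6.37 and 6.10 in EGFR cells, against 6.89, 7.002 and 6.92 in wild type GFP positive cells (-0.76 ± 0.14, adjusted p = 0.00899), and 0 were higher, where 1.43% of all probe sets were called lower and 1.3% higher. That call held without any 1 array, and 4 genes were called without EGFR array 1B. In FGFR gain of function cells mRpS34 was higher and mRpS18C lower (1.23% and 0.974% of all probe sets). The mRpS34 gene had 5.91, 5.97 and 5.70 in FGFR cells and 5.85, 5.78 and 6.03 in spi loss of function cells, against 4.87, 4.96 and 5.40 in wild type GFP positive cells. It was the 1 gene called in spi cells, higher by 0.81 ± 0.18 (adjusted p = 0.0246), where 1.75% of all probe sets were called higher and 1.43% lower.

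The 3 genotypes of set 1 share these wild type arrays. The FGFR difference of mRpS34 was 0.78 ± 0.18 (adjusted p = 0.0342). For mRpS18C the levels were 7.46, 7.15 and 7.05 in FGFR cells, against 7.87, 7.74 and 7.79 in wild type cells (-0.58 ± 0.13, adjusted p = 0.03). In FGFR cells 0 genes were called without FGFR array 1B or 1C or wild type GFP positive array 1A or 1B, and 1 without FGFR array 1A or wild type GFP positive array 1C. In spi cells 0 were called without any 1 of the spi arrays or without wild type GFP positive array 1A. The median difference over the 64 genes was -0.10 in EGFR cells, 0.00 in FGFR cells and 0.06 in spi cells. A positive difference was found for 16 of the 64 genes in EGFR, 32 in FGFR and 42 in spi cells. Over all probe sets 50.7%, 51.1% and 51.1% were positive, in the same order.

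**Figure D5:**
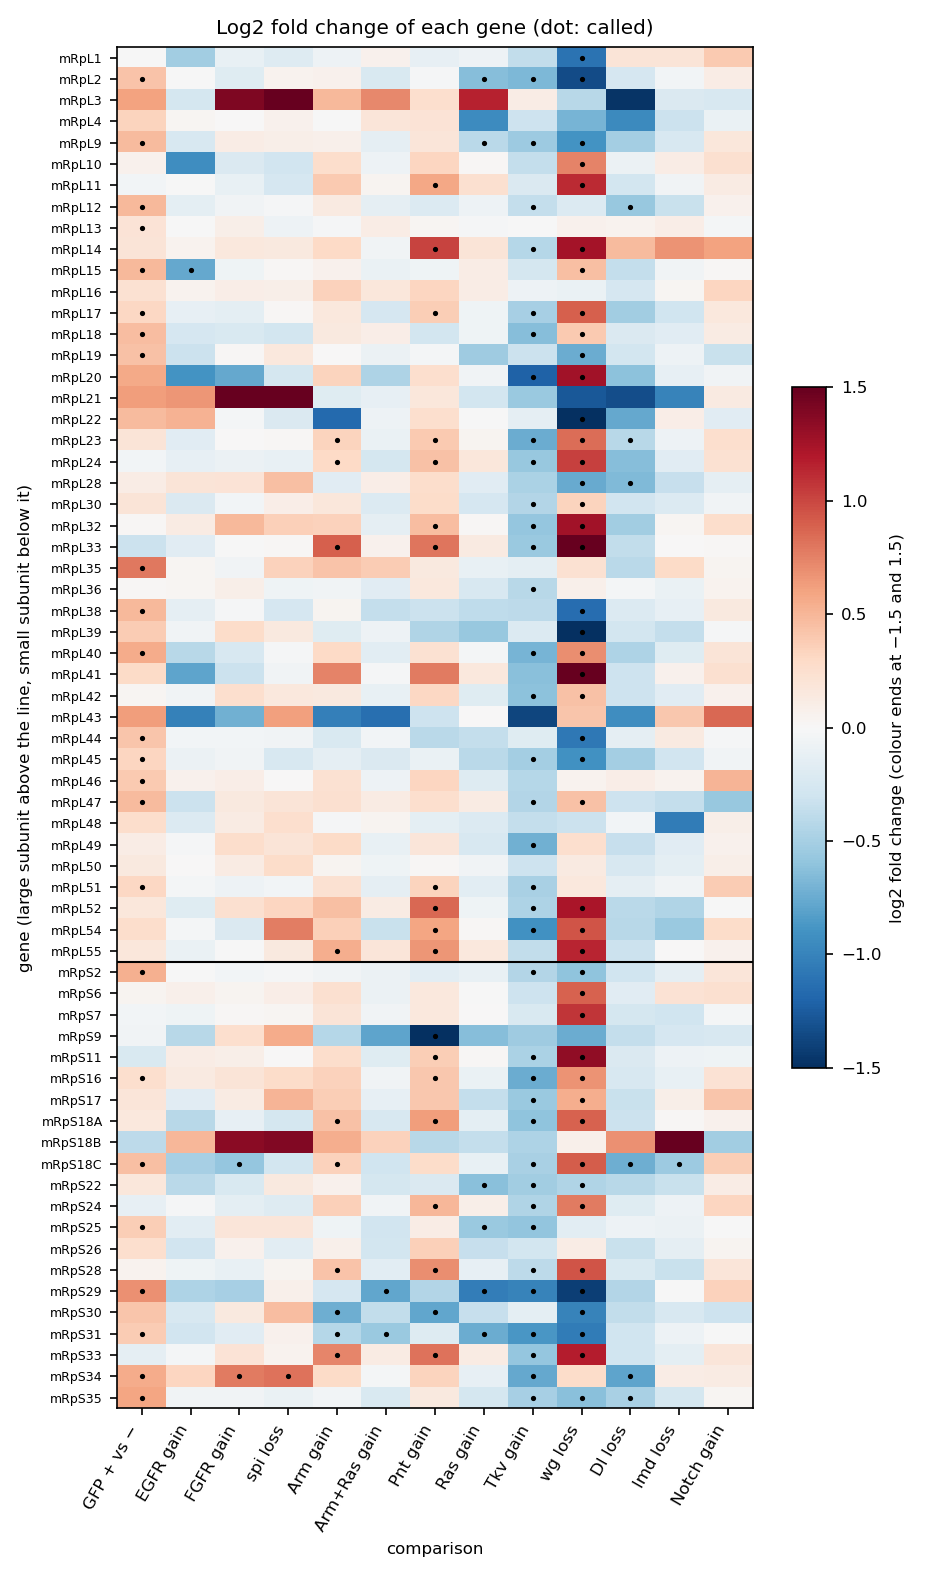
Log2 difference of each of the 64 genes (down the page, large subunit above the line, small subunit below it) in the 13 comparisons (columns), with a dot where the gene was called. The Tkv gain of function column is blue along both subunits, and the wg loss of function column holds both colours.

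Over the 13 comparisons 55 of the 64 genes were called at least once, and 33 were called in 3 or more comparisons. The same counts over all probe sets were not made, and comparisons within a set share wild type arrays. The counts in this paragraph therefore describe the 64 genes and do not show whether they differ from other genes. The gene called most often was mRpS18C, in 7 comparisons (3 higher, 4 lower), followed by mRpS31 in 6 and by mRpL23, mRpS29 and mRpS34 in 5 each. Called in 4 comparisons were mRpL2, mRpL9, mRpL17, mRpL24, mRpL33, mRpS16, mRpS18A, mRpS28, mRpS33 and mRpS35. Called in 3 were mRpL12, mRpL14, mRpL15, mRpL18, mRpL32, mRpL40, mRpL45, mRpL47, mRpL51, mRpL52, mRpL54, mRpL55, mRpS2, mRpS11, mRpS22, mRpS24, mRpS25 and mRpS30. Over the 12 genotypes, 25 genes were called higher in some and lower in others. The 9 genes called nowhere were mRpL3, mRpL4, mRpL16, mRpL21, mRpL43, mRpL48, mRpL50, mRpS18B and mRpS26.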

How the data were processed

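The deposited values are log2 levels per probe set, 1 column per array. Per the submitters' processing notes, the authors used the package affy to make them; the background correction, normalization and summary steps are not given in the sources used here. The log2 scale was read from the values. The arrays of set 1 had medians of 4.57 to 4.615, those of set 2 had 4.166 to 4.272 and those of set 3 had 3.645 to 3.72, so levels of different sets were not compared. The table holds 14010 probe sets, of which 13966 were tested without a filter and 44 are controls. GEO's platform annotation gave 1 symbol for 12443 of them, several for 327 and none for 1196, and symbols were updated through gene identifiers to RefSeq's. The genes mRpL11 and mRpL12 have another probe set, called in the opposite direction in no comparison. The table held 10 missing values, 0 of them in the 64 genes.

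Tests used limma 3.58.1 in R 4.3.3 (lmFit, then eBayes with a variance trend, two-sided, Benjamini-Hochberg adjustment over the probe sets tested, threshold 0.05) on the 54 arrays. The 2 sorts were compared in 18 wild type arrays, blocked by set. For each genotype the comparison was with wild type GFP positive cells from its set, in a fit of 1 mean per group over the set. The limma code was tested on simulated data. Tables and figures were made with Python 3.11.15, pandas 2.3.3, numpy 2.4.6 and matplotlib 3.10.9. The genes and the gene lists were chosen with earlier results of these data known. Genes named are all those called where 12 or fewer were called, otherwise at most 8 in each direction by size, the 2 with the smallest p where 0 were called, those called in 3 or more comparisons, and up to 3 called genes of a pathway list; the per-set values of the interaction test and the genes called nowhere were added after seeing the values. Alternatives were no variance trend, a block for the replicate letter, a fit of only the groups compared, quantile normalization, brighter probe sets only, probe sets of a gene averaged, each set alone, each array left out and, chosen after seeing the data, the eIF-4a difference as a covariate. Same-lettered arrays deviated from their group means with correlations of -0.02 to 0.14, with no comparison in which every pair exceeded 0.1. The letters were therefore not taken to pair arrays in the main fits. In set 3, however, the pairs of letter A were at 0.11 to 0.14, and array 3A had the lowest eIF-4a difference in every group. A step shared by same-lettered arrays of that set was not tested, and the calls with the letter as a block are given below.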

Additional observations from a re-analysis of the deposited data

Results flagged for a closer look

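For 6 genes the difference between GFP positive and GFP negative wild type cells itself differed between the 3 sets. The test was limma's F test of the interaction over the 18 arrays. Over all probe sets 7.94% passed it at an adjusted p under 0.05, a share close to that among the mitochondrial ribosomal protein genes. Such a dependence on the set is therefore not shown to be particular to these genes. The adjusted p was 0.000511 for mRpS11, 0.00124 for mRpL33, 0.00356 for mRpS18A, 0.00502 for mRpS31, 0.0222 for mRpL14 and 0.0487 for mRpL28. In mRpS11, mRpL33, mRpS18A and mRpL14 the difference was negative in set 2, at -0.77, -1.10, -0.36 and -0.43. In mRpL28 it was -0.37 in set 1, and in mRpS31 it was -0.03 in set 3. The eIF-4a 3′ minus 5′ difference was 2.01 to 2.24 on GFP positive and 2.29 to 2.37 on GFP negative arrays of set 2. The actin difference there went the other way, higher in GFP positive arrays, and the part of neither was tested.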

How the results depend on the processing

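Of 190 recomputed counts and medians, those with 1 array left out aside, 160 stayed within 1.5 times the count or within the spread between arrays. The others were as follows. Between GFP positive and GFP negative cells, set 1 on its own gave 10 calls and set 3 on its own gave 1 with a median of 0.17, with mRpL46 at -0.052 and mRpS31 at -0.0337 there. Without the variance trend the calls were 1 in FGFR, 5 in Arm, 12 in Pnt, 2 in Dl and 0 in lmd cells, and 3 genes differed between sets. With only the groups compared they were 0 in FGFR, 0 in spi, 3 in Arm, 6 in Pnt, 21 in Tkv, 2 in Dl and 0 in lmd cells; these fits hold fewer arrays. With the replicate letter as a block they were 3 in EGFR, 10 in Dl, 3 in lmd and 2 in Notch cells, and in the other comparisons the block moved no count by over 1.5 times. With brighter probe sets only, 3 genes were called in EGFR and 1 in Notch cells, and 15 differed between sets. With the eIF-4a covariate, 1 gene was called in FGFR, 11 in Tkv, 3 in Dl, 2 in Notch (median 0.17) and 3 in wg cells (median 0.0267). In wg cells that covariate turned mRpL15 (-0.0913), mRpL18 (-0.23), mRpL22 (1.53), mRpL42 (-0.49), mRpS16 (-0.062) and mRpS30 (0.00413).

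With each array left out in turn, the number called was 1 to 4 in EGFR, 0 to 1 in FGFR, 0 to 1 in spi, 4 to 11 in Arm, 2 to 4 in Arm+Ras, 10 to 17 in Pnt, 21 to 41 in Tkv, 2 to 7 in Dl and 0 to 1 in lmd cells. The median then lay between 0.0873 and 0.22 in Arm, -0.22 and -0.0699 in Arm+Ras, 0.14 and 0.27 in Pnt, -0.21 and -0.0618 in Ras and 0.16 and 0.30 in wg cells. Of 153 single calls, 100 held without any 1 array. Where a call was lost or a sign turned, the cause was not tested. The shares of all probe sets called in the alternative fits and with arrays left out are not given here. Signal over background could not be read from these values, and 3 arrays a group set the smallest difference that can be called.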
